A study of Homo sapiens with 6 samples.

Results

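Messages of 55 cytosolic ribosomal proteins were examined in NCI-H1299, an established human lung cancer line given the cell type LUAD (lung adenocarcinoma) by its submitters. The genes were taken by symbol from a fixed list, and each of the 55 was found once among the 35784 gene identifiers of the deposited table, 34 of the large subunit (RPL and RPLP) and 21 of the small subunit (RPS). RNA sequencing of total RNA had been done for 6 libraries in 2 groups. The 3 control libraries (KO-NC, genotype control) carry the word lenti in their descriptions, with no account of the vector, and the 3 knockout libraries (KO-IGF2BP3) came from cells infected with LentiCrisprv2 carrying guide RNAs against IGF2BP3. Infected cells were selected with puromycin and grown out as single-cell colonies. Which colony gave which library, whether the controls were also colonies, and whether replicates were separate cultures is not stated. The p-values below therefore rest on library-to-library spread that could be technical, and a property of a single clone cannot be told apart from an effect of the genotype.

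The cytosolic ribosome is built from ribosomal RNA and about as many different proteins as there are genes of the RPL and RPS families, nearly all present in a single copy per ribosome. The small subunit reads the message and the large subunit joins the amino acids. The messages of these proteins are among the most abundant of a growing cell, and most begin with a cytosine followed by a run of pyrimidines, the terminal oligopyrimidine (TOP) tract, through which mTORC1 and LARP1 govern their translation and stability. IGF2BP3, the targeted gene, encodes a protein that binds messenger RNAs and affects how long they last and how they are translated.

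The start sites of the 10 members that rose in the knockout are shown because the TOP tract is the sequence that ties this family together. Each window of 30 bases runs from 10 bases before the RefSeq start (build GRCh38.p14) through the first 20 transcribed bases, on the strand of the gene. Capitals mark the longest run of at least 5 pyrimidines (C or T) that starts with C within 5 bases of that start, a rule set after the sequences were seen and applied to the sense strand only.
RPS19 at chr19:41860245-41860274, plus strand: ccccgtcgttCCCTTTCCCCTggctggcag
RPS16 at chr19:39435930-39435959, minus strand: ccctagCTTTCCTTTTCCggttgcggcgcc
RPS28 at chr19:8321486-8321515, plus strand: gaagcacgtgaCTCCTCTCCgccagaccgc
RPS21 at chr20:62387093-62387122, plus strand: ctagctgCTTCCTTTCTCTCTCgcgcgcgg
RPS25 at chr11:119018324-119018353, minus strand: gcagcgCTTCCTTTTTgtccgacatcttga
RPL18 at chr19:48619159-48619188, minus strand: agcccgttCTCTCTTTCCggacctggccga
RPL4 at chr15:66504836-66504865, minus strand: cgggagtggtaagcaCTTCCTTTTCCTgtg
RPL35 at chr9:124861938-124861967, minus strand: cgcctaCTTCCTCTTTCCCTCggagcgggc
RPL31 at chr2:101002279-101002308, plus strand: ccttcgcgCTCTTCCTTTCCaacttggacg
RPL27 at chr17:42998409-42998438, plus strand: gtgaaaggttagcggaagtgtccttctttc

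Such a run was found for 9 of these 10, the exception being the window of RPL27. Of all 55 members, 47 had a RefSeq start, and 41 of the 47 (87.2%) carried the run within 5 bases of a start, against 25.1% of the 27258 other genes with a start in the same table. The annotated first base was itself a C opening at least 5 pyrimidines in 34 of 47 members (72.3%) and in 5.03% of the other genes, though in most of these members the run also reached upstream of that base, as the windows show. Besides RPL27, the members with a start and no such run were RPL6, RPL9, RPL15, RPS4X and RPS15. The windows of RPL27, RPL9 and RPS15, and of the third RefSeq start of RPL15, held a C-led pyrimidine run further downstream. No run in this count therefore means none near the annotated start, and not the absence of a TOP tract. The first of 3 RefSeq starts of RPL15, the only member below the controls, is shown for contrast. The other 2 had no run within 5 bases of the start either.
RPL15 at chr3:23916535-23916564, plus strand: tggggcctgctggaggagcttcacgcagtc
The median log2 fold change was 0.23 for the 41 members with the run, 9 of them called, and 0.20 for the 6 without it, 1 of them called, with no test made.

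Libraries held between 67674223 and 80810319 counts, so that 3 counts, taken as the floor of detection, were at most 0.0443 CPM (counts relative to the library total, as adjusted by TMM factors), for counting error only. The IGF2BP3 message was lower in each knockout library (39.9, 25 and 22.6 CPM) than in any control (51.6 to 58.8 CPM; adjusted p = 0.017 in edgeR; log2 fold change -0.91, SE 0.20), a call kept in 2 of 6 fits that left out a library. Of 6 epithelial and lung markers, KRT8 (4752 against 2427 CPM on average) and KRT18 (3056 against 1715 CPM) were abundant and fell in the knockout, EPCAM was at 3.36 to 4.84 CPM, and the lung markers NKX2-1, NAPSA and SFTPB lay between 0 and 2.2 CPM. Of 6 markers of other cell types, COL1A1 was at 6.02 to 11.3 CPM, CD3E was at 0 in all 6 libraries, and PTPRC, PECAM1, DCN and HBB were at most 0.536 CPM. The part of these markers in the differences below was not tested. Bulk values of this kind cannot tell fewer cells with a message from less message per cell, and CPM shows each message only relative to all others. On the second principal component knockout replicate 1 was at 75.7 and its group mates at -46.3 and -26.9, so the count of calls is also given without that library.

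Ribosomal protein messages were slightly more abundant in the knockout. In edgeR (quasi-likelihood test, Benjamini-Hochberg adjustment over 20134 genes), 10 of the 55 members rose (18.2%), against 8.21% of all tested genes called higher. No member (0 of 55) fell, against 11.5% of all tested genes called lower, and 45 did not pass. At an unadjusted p under 0.05 edgeR had 28 members higher and 0 lower, and neither DESeq2 nor limma called a member lower. A log2 fold change above 0 was found for 54 of 55 members, against 50.5% of all tested genes. The 3 knockout libraries lay above all 3 controls for 33 members, or 60% (19.7% of all tested genes), and below them for 1 (21.5%). The median member differed 1.16-fold (log2 0.21, from -0.12 to 0.45), while the median of all tested genes was 0.01. Because the members were listed with earlier results of these data known, and because they move together from library to library (below), these counts are a description and not 55 separate observations.

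**Figure D1:**
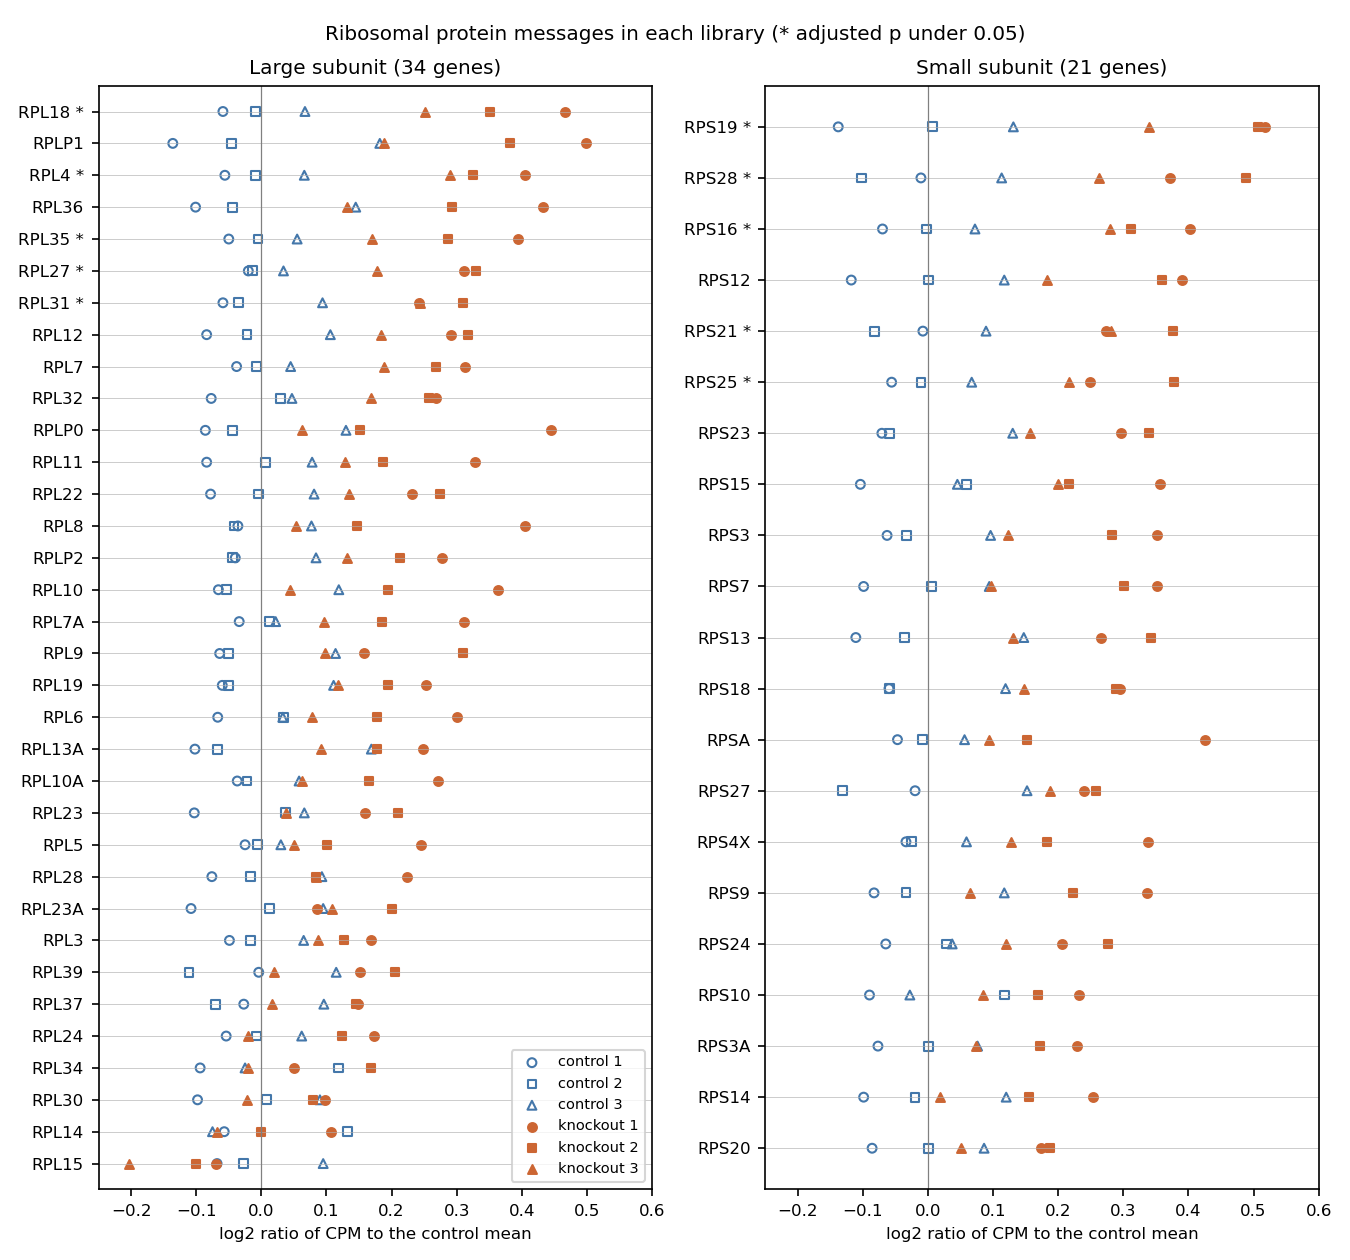
Each row is a member and each point a library, plotted as the log2 ratio of its CPM to the mean of the 3 controls, with large subunit members on the left and small subunit members on the right, and asterisks for an adjusted p under 0.05. Knockout libraries (filled) lie to the right of the controls (open) in most rows, control 3 is the rightmost control in 50 rows and knockout 3 the leftmost knockout in 51.

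In the small subunit, 5 of 21 members rose and 16 did not pass, with all 21 above the control mean. The calls made up 23.8% of the subunit, against 8.21% of all tested genes called higher. The head of the subunit, which swivels as the ribosome steps along the message, held 4 of these calls among 10 members (40%). Its median log2 fold change was 0.27, against 0.22 for the body and platform. RPS19 (ENSG00000105372, GRCh38 chromosome 19 from 41860255 to 41872925), a head protein whose loss of a copy is a common cause of Diamond-Blackfan anaemia, was at 543, 600 and 654 CPM in the controls and at 854, 848 and 756 CPM in the knockout. The groups were well separated, and this was the widest difference of any member (599 ± 55.6 against 819 ± 55.3 CPM, SD, n = 3; log2 fold change 0.45, SE 0.10, adjusted p = 0.016 in edgeR).

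RPS16 (chromosome 19 from 39433137 to 39435949), which reaches towards the P site, was at 710, 744 and 783 CPM in the controls and 985, 925 and 905 CPM in the knockout. Its groups were also apart, by more than the range within each (log2 fold change 0.33, SE 0.08, adjusted p = 0.026 in edgeR). RPS28 was the least abundant member by its own row. Control libraries stood at 16, 15 and 17.5 CPM, knockout libraries at 20.9, 22.7 and 19.4 CPM (log2 fold change 0.38, SE 0.11, adjusted p = 0.047 in edgeR). Its 2 pseudogene rows held more, with means of 31.2 CPM (control) and 33.2 CPM (knockout). Whether those reads came from RPS28 was not tested, and its rank and fold change leave them out. RPS25, a head protein used by several viral internal ribosome entry sites, was at 112 to 122 CPM in the controls and 135 to 151 CPM in the knockout (adjusted p = 0.037). RPS12 came closest of the head proteins that did not pass, at 167, 181 and 197 against 238, 232 and 206 CPM (log2 fold change 0.31, SE 0.09, adjusted p = 0.051 in edgeR). RPS20 had the smallest difference of the subunit, at 254 to 287 against 280 to 307 CPM, and its groups overlapped (log2 fold change 0.14, SE 0.08).

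Among the 11 members of the body and platform, only RPS21 was called. It stood at 37.9, 36 and 40.5 CPM in the controls and 46.1, 49.5 and 46.3 CPM in the knockout (log2 fold change 0.31, SE 0.08, adjusted p = 0.029 in edgeR). The other 10 had log2 fold changes between 0.14 and 0.26, all smaller than that of RPS21. RPS4X, the X-linked copy of RPS4, was at 1007, 1013 and 1074 CPM in the controls and 1303, 1170 and 1125 CPM in the knockout (adjusted p = 0.13), with no overlap.

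In the large subunit, 5 of 34 members rose and 29 did not pass, with 33 above the control mean. Of all tested genes 8.21% were called higher, against 14.7% of the large subunit. Proteins that line the exit tunnel or ring its mouth held 3 of the 5 calls among 7 members (42.9%). Their median log2 fold change of 0.21 was the same as that of all 55 members. RPL4 (ENSG00000174444, chromosome 15 from 66498015 to 66524532), whose loop narrows the tunnel, was at 1783, 1842 and 1941 CPM in the controls and 2455, 2323 and 2267 CPM in the knockout. All knockout libraries were above all controls (1855 ± 79.7 against 2348 ± 96.4 CPM; log2 fold change 0.34, SE 0.08, adjusted p = 0.027 in edgeR). RPL35, at the tunnel mouth beside the site where the signal recognition particle docks, was at 160 to 173 against 187 to 218 CPM (adjusted p = 0.045), and RPL31, its neighbour at the rim, at 95.6 to 106 against 118 to 124 CPM (adjusted p = 0.039). The other 4 tunnel proteins (RPL19, RPL22, RPL23A and RPL39) had log2 fold changes of 0.12 to 0.21 and did not pass.

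RPL18 (chromosome 19 from 48615328 to 48619184) and RPL27 were the remaining calls. RPL18 was at 438, 453 and 478 CPM in the controls and 630, 582 and 543 CPM in the knockout, the widest fold of the large subunit (log2 0.36, SE 0.09, adjusted p = 0.024 in edgeR). RPL27 was at 264 to 274 against 303 to 337 CPM (adjusted p = 0.038). Both had groups that did not touch. Next in order came RPL7 at 700 to 741 against 819 to 893 CPM (adjusted p = 0.053), RPL32 at 259 to 283 against 307 to 329 CPM and RPL12 at 548 to 625 against 660 to 724 CPM (both adjusted p = 0.068 in edgeR).

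The P stalk, which recruits and activates the elongation factors, had no called member. RPLP0, its base, was at 2140, 2202 and 2485 CPM in the controls and 3091, 2524 and 2370 CPM in the knockout, so that knockout replicate 3 was below control replicate 3 (log2 fold change 0.23, SE 0.12, adjusted p = 0.25). RPLP1, which pairs with RPLP2 on the stalk, was at 446, 475 and 556 against 692, 639 and 559 CPM. Its fold was as large as that of RPL18 (log2 0.36), but with an SE of 0.12 it missed the threshold (adjusted p = 0.07 in edgeR). RPLP2 was at 207 to 226 against 234 to 259 CPM (adjusted p = 0.1).

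RPL5 and RPL11, which with 5S ribosomal RNA form the particle that binds MDM2 when ribosome assembly fails, did not pass either. RPL5 was at 456, 462 and 474 CPM in the controls and 550, 498 and 481 CPM in the knockout (log2 fold change 0.135, SE 0.08, adjusted p = 0.29). RPL11 was at 276, 294 and 308 against 367, 333 and 319 CPM (log2 fold change 0.22, SE 0.09, adjusted p = 0.12 in edgeR). In both genes the groups were narrowly apart. The 3 proteins near the peptidyl transferase centre, RPL3, RPL8 and RPL10, had log2 fold changes of 0.13, 0.21 and 0.20, none past the threshold.

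RPL15, a core protein wrapped by ribosomal RNA, was the only member below the controls. It was at 1121, 1153 and 1254 CPM in the controls and 1120, 1096 and 1020 CPM in the knockout, so the groups came within 1 CPM of touching and the difference was small (log2 fold change -0.12, SE 0.09, adjusted p = 0.36 in edgeR). RPL14 was level, at 303, 345 and 299 against 339, 315 and 300 CPM (log2 fold change 0.01, SE 0.09). Both lie on chromosome 3, where 5 members had a median log2 fold change of 0.09, the lowest of any chromosome with at least 2 members.

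The subunits were then set against each other. The median log2 fold change was 0.24 over the small subunit and 0.20 over the large, a gap of 0.05 that ran from 0.04 to 0.07 when any 1 library was left out. Called members made up 5 of 21 and 5 of 34. Summed counts of the large subunit were 2.52, 2.49 and 2.52 times those of the small in the controls and 2.43, 2.39 and 2.43 times in the knockout. The ratio was thus lower in every knockout library, at 0.963 of the control mean. No test was made of sums or medians over chosen members.

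Single libraries differed within each group in a way that most members shared. The 55 genes took 2.99%, 3.07% and 3.3% of all gene counts in controls 1, 2 and 3 and 3.7%, 3.8% and 3.54% in knockouts 1, 2 and 3, so the knockout mean was 1.18 times that of the controls (3.12 ± 0.16% against 3.68 ± 0.13%, SD, n = 3). After TMM scaling the median member was at log2 ratios of -0.07, -0.01 and 0.09 to the control mean in controls 1, 2 and 3, and 0.27, 0.21 and 0.12 in knockouts 1, 2 and 3. The step from control 3 to knockout 3 was therefore smaller than the spread within either group. Control 1 was the lowest control for 47 of 55 members and control 3 the highest for 50. Among the knockout libraries replicate 3 was the lowest for 51 members, while replicate 1 was the highest for 38 and replicate 2 for 17. Which knockout library led depended on the scale, replicate 1 in CPM with TMM factors and replicate 2 as a plain share of counts. The median of all tested genes stayed within 0.01 of the control mean in all 6 libraries.

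The number of called members changed with the libraries that entered and with the processing, while the median difference kept its direction. None of the 10 calls held in every fit that left out a library (0 of 10). No member was called without control replicate 1, without control replicate 2 or without knockout replicate 2, although 3.69%, 3.96% and 4.24% of all tested genes were called higher in those edgeR fits and 10, 14 and 14 members had an unadjusted p under 0.05. Without knockout replicate 3 the calls numbered 3 (5.45%, background 4.57%), without control replicate 3 they numbered 8 (14.5%, background 5.19%), and without knockout replicate 1 they numbered 13 (23.6%, background 10.8%). Across these fits the median log2 fold change of the members lay between 0.16 and 0.26.

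Other ways of processing gave more calls or fewer. DESeq2 called 17 members (30.9%, background 8.71%), limma-voom after quantile normalization 25 (45.5%, background 11.6%) and limma on log2(FPKM + 1) 26 (47.3%, background 14.5%). With a mean count of at least 100 as filter edgeR called 16 (29.1%, background 12.8%), with DESeq2-type size factors 11 (20%, background 8.34%) and with no filter 4 (7.27%, background 3.1%). Against a minimum fold of 1.5 no member passed (0 of 55, background 1.29%), the widest fold being 1.37, and 0 had an unadjusted p under 0.05 there. With the replicate number as a block none passed in edgeR either (0 of 55, background 5.69%), with 16 at an unadjusted p under 0.05. No member was called lower in any of the 14 alternatives.

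**Figure D2:**
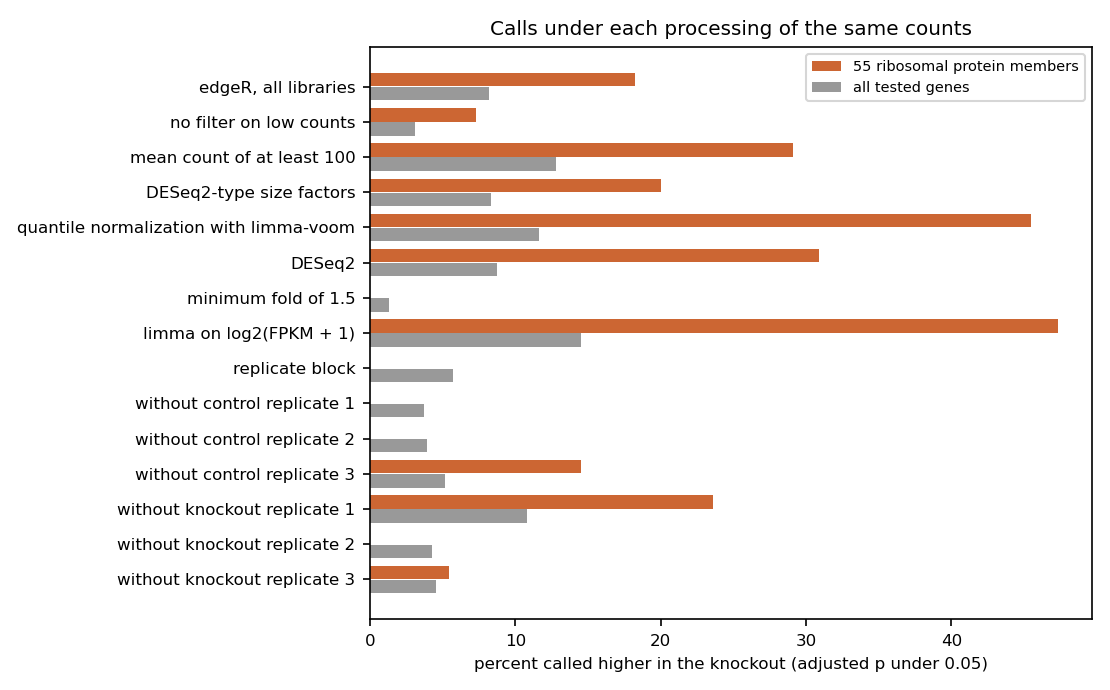
Bars give the percent of the 55 members (orange) and of all tested genes (grey) called higher in the knockout at an adjusted p under 0.05, for the edgeR fit of all libraries and 14 alternatives. The members' bar runs from 0 to 47.3% and is at 0 in 5 alternatives, where 1.29% to 5.69% of all tested genes were called.

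Levels between members can be compared only per length. In FPKM as deposited, RPL8, RPL13A and RPL7A led with means over the 6 libraries of 789, 783 and 683, and RPS28, RPL34 and RPL31 were lowest at 8.35, 13.9 and 19.8. Proteins present at like copy number per ribosome thus had messages recorded at very unequal levels. These levels leave out reads in pseudogene rows, which for RPS28 outnumbered its own. Per group, RPL8 was at 726 ± 31.7 FPKM in the controls and 853 ± 68.9 in the knockout, and RPL34, a small protein of the large subunit, at 13.5 ± 1.03 and 14.4 ± 1.31. Members with longer coding sequences tended to have higher levels. Across 55 members, log2 FPKM and log2 coding length (GENCODE 29, from 153 bases for RPL39 to 1281 for RPL4) had a Pearson r of 0.65 and a Spearman rho of 0.67, members sharing the same libraries and cell line. For CPM per coding kilobase the values were 0.54 and 0.53. Whether size selection in library preparation plays a part was not tested.

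The gene lengths behind the FPKM values also differ from the coding lengths. The ratio of counts to FPKM corresponded to 0.671 kb for RPS12, with a coding sequence of 396 bases, and to 9.06 kb for RPL14, with 645 bases. The FPKM order of members thus depends on the lengths used, which do not enter a gene's own fold change. Fold changes showed little relation to coding length (r = -0.11, rho = -0.17, n = 55 members), to level in CPM (r = -0.09, rho = -0.07) or to the number of processed and other pseudogenes that RefSeq lists for the member (r = -0.14, rho = -0.22).

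Position and gene structure were compared in the same descriptive way. The counts of calls here stand beside 8.21% of all tested genes called higher. That share was not taken for chromosome 19, for snoRNA hosts or for short genes alone. Chromosome 19 carries 9 members, of which 4 rose (RPS19, RPS16, RPS28 and RPL18), against 6 of the 46 elsewhere, and its members had a median log2 fold change of 0.29 against 0.21. All 1296 tested genes of chromosome 19 had a median of 0.16, higher than the 0.01 of the whole table, a difference in the same direction as that of its members. On chromosome 15, with RPL4 and RPLP1, the 748 tested genes had a median of 0.14. Members with at least 1 snoRNA gene of GENCODE 29 inside their span, on the same strand, numbered 20. Of these 1 (RPL4) was called, against 9 of the 35 others (medians 0.18 and 0.22). Of 25 members with a coding length under 450 bases 8 were called, against 2 of 30 longer ones (medians 0.26 and 0.20), a division made after the values were seen.

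Of 24 further cytosolic ribosomal proteins outside the list, 5 rose (20.8%, against 8.21% of all tested genes), 2 fell (8.33%, against 11.5%) and 17 did not pass. Their median was 0.23 on the log2 scale, and 19 were above the control mean. Among those below it that did not pass was RPS6, the target of the S6 kinases, on chromosome 9, at 1345, 1342 and 1508 against 1282, 1223 and 1127 CPM (log2 fold change -0.21, SE 0.09, adjusted p = 0.16 in edgeR; chosen after its values were seen). RPS2, on chromosome 16, was also below it, at 2078, 2128 and 2358 against 2099, 1844 and 1645 CPM. Its groups overlapped (log2 fold change -0.23, SE 0.11, adjusted p = 0.2 in edgeR). RPL38, known for its part in the translation of Hox messages in the mouse, rose from 84.6, 85.6 and 89.3 CPM to 135, 138 and 131 CPM (log2 fold change 0.64, SE 0.07, adjusted p = 6.8e-04 in edgeR). It lies on chromosome 17 from 74203582 to 74210655. The 4 members on that chromosome had a median log2 fold change of 0.16, and all its tested genes 0.06. Those 4 lie between 28719985 and 43002959, at a distance from RPL38, and the genes close to RPL38 were not summarized apart. The falls were RPS15A, at 254 to 275 against 186 to 197 CPM (adjusted p = 0.0036; log2 fold change -0.47, SE 0.07), and RPL13, at 924 to 1047 against 677 to 789 CPM (adjusted p = 0.023 in edgeR; log2 fold change -0.40, SE 0.10). Both lie on chromosome 16, whose tested genes had a median of -0.49, and none of the 55 members lies there. The calls of RPL38 and RPS15A held with each library left out, that of RPL13 in only 1 of 6 such fits.

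Of 10 paralogs of ribosomal proteins, 8 were in the table and tested. Of these, 3 rose (37.5%, against 8.21% of all tested genes) and 1 fell (12.5%, against 11.5%). The Y-linked RPS4Y1, whose product can take the place of that of RPS4X, was at 1.49, 4.7 and 5.16 CPM in the controls and 212, 198 and 189 CPM in the knockout (log2 fold change 5.73, SE 0.42, adjusted p = 1.5e-04 in edgeR). RPS4Y1 thus made up 0.147% to 0.478% of the reads of the 2 RPS4 copies in the controls and 14% to 14.5% in the knockout, and the copies together went from 1008 to 1079 CPM to 1314 to 1515 CPM. The 25 tested genes of the Y chromosome, RPS4Y1 among them, had a median log2 fold change of 5.38. The coding sequences of the copies are similar, and how reads common to both were assigned was not tested. RPL39L, a testis-enriched copy of RPL39, rose from 7.83 to 8.93 CPM to 11.5 to 14 CPM and RPL7L1 from 121 to 129 CPM to 147 to 168 CPM. RPL22L1, the copy of RPL22, fell from 22.8 to 27.5 CPM to 16 to 20.1 CPM (adjusted p = 0.021; log2 fold change -0.53, SE 0.12), while RPL22 itself was at 251 to 280 against 291 to 321 CPM.

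Mitochondrial ribosomal proteins, which build the separate ribosome of that organelle, were compared next. Of 78, 5 rose (6.41%, against 8.21% of all tested genes), 3 fell (3.85%, against 11.5%) and 70 did not pass, 53 lay above the control mean, and the median log2 fold change was 0.10. MRPL38 rose from 53.4 to 54.2 CPM to 79.6 to 98 CPM and MRPL12 from 119 to 122 CPM to 172 to 229 CPM, both called in every fit that left out a library. MRPL14 rose from 15.4 to 17.7 CPM to 21.4 to 24.6 CPM and MRPL10 fell from 68.7 to 81.3 CPM to 56.2 to 58.5 CPM. MRPL12 (log2 fold change 0.70) lies on chromosome 17 from 81703367 to 81707517, the chromosome of RPL38 and also of MRPL10 (from 47823272, log2 fold change -0.35). Of these, MRPL12 lies nearer to RPL38 than MRPL10 does. Whether position on the chromosome plays a part was not tested.

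Other messages with TOP tracts were compared from a list of 19 proteins, mainly translation factors. In edgeR none passed (0 of 19, against 8.21% of all tested genes called higher and 11.5% lower). At an unadjusted p under 0.05 edgeR had 7 higher and 1 lower. DESeq2 called 4 of 19 higher (background 8.71%), limma-voom 5 (background 11.6%) and limma on FPKM 6 (background 14.5%). Of the 19, 17 lay above the control mean, and the median log2 fold change was 0.17. NAP1L1, a histone chaperone, was at 589 to 659 against 745 to 762 CPM (log2 fold change 0.26, SE 0.08) with an adjusted p that rounds to 0.05 without passing, and NACA, which binds nascent chains at the tunnel mouth, at 442 to 444 against 499 to 552 CPM (adjusted p = 0.057). Of 13 snoRNA host transcripts with TOP tracts, 5 rose (38.5%, against 8.21% of all tested genes) and 8 did not pass, with a median log2 fold change of 0.34, above that of the members. SNHG16 rose from 60.1 to 67.9 CPM to 99.1 to 110 CPM, SNHG15 from 19 to 24 CPM to 33.8 to 37.9 CPM, and SNHG1 from 94.5 to 123 CPM to 159 to 188 CPM. SNHG5 rose from 56.7 to 67.6 CPM to 77.8 to 87.7 CPM.

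Of 21 regulators of ribosomal protein synthesis, 2 rose (9.52%), 3 fell (14.3%) and 16 did not pass, shares near the 8.21% and 11.5% of all tested genes. RPS6KB1, the kinase that phosphorylates ribosomal protein S6 downstream of mTORC1, rose from 87.8 to 90.8 CPM to 116 to 143 CPM (adjusted p = 0.0048 in edgeR; log2 fold change 0.57, SE 0.09). TSC2, which holds mTORC1 in check through RHEB, fell from 97.8 to 103 CPM to 56.8 to 67.9 CPM (adjusted p = 0.0013; log2 fold change -0.71, SE 0.08). MLST8, an mTOR partner, and TSC2 both lie on chromosome 16, and MLST8 fell from 39.8 to 44.5 CPM to 27.5 to 34.8 CPM. EIF4EBP2, a translational repressor, fell from 80 to 84.1 CPM to 61.9 to 71.1 CPM. MYC, an activator of ribosomal protein genes, did not differ past the threshold, at 140, 145 and 135 CPM in the controls and 179, 135 and 129 CPM in the knockout (log2 fold change 0.08, SE 0.125, adjusted p = 0.71 in edgeR). MTOR was at 118 to 132 against 111 to 127 CPM (adjusted p = 0.48), and LARP1 was at 396 to 412 against 435 to 543 CPM (adjusted p = 0.12; log2 fold change 0.25, SE 0.10).

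Of 12 partners, importers and quality-control factors of ribosomal proteins, 3 rose (25%, against 8.21% of all tested genes) and 9 did not pass. MRTO4, which holds the place of RPLP0 on the maturing subunit, rose from 44.9 to 52.6 CPM to 62.8 to 85.6 CPM (adjusted p = 0.018 in edgeR; log2 fold change 0.56, SE 0.13). BCCIP, a chaperone of RPL23, rose from 66.1 to 84.9 CPM to 96 to 102 CPM, and PDCD2L, a relative of the RPS2 chaperone PDCD2, from 15.8 to 17.2 CPM to 22 to 28.6 CPM. MDM2, the ubiquitin ligase bound by RPL5 and RPL11, was at 55.5 to 64.7 CPM in the controls and 48.9 to 61.8 CPM in the knockout, with overlapping groups.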

How the data were processed

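Total RNA of 6 NCI-H1299 libraries was grouped by title, 3 per group. Per the labels' protocols, the authors trimmed reads with Cutadapt, aligned them with HISAT2 and quantified genes with StringTie. Versions come from the submitters' processing notes (HISAT2 2.0.4, StringTie 1.3.4d, build GRCh38). Annotation release and strand setting: not given in the sources used here. The deposited table gives raw counts per gene and FPKM, which the authors scaled by gene length and reads. Small counts were mostly even (69.9% to 71% of counts from 4 to 10), so both mates of a pair may have been counted. Independent fragments would then be fewer than counts. Of counts above 100, 49.5% to 50.1% were even.

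Counts were filtered with filterByExpr (minimum 10, total 15), TMM-scaled and tested in edgeR 4.0.16 under R 4.3.3 (design: group alone), over all 20134 genes. A standard error is the absolute log2 fold change over the square root of F. Log ratios per library used CPM plus 0.1. The fit was tried on simulated counts, with genes drawn independently and changed folds of at least 1.5, wider than that of any member. That simulation therefore does not bear on the calls of members. Alternatives were filters, size factors, limma 3.58.1, DESeq2 1.42.0, a minimum fold of 1.5, log2(FPKM + 1) for genes with a mean FPKM of at least 1, a replicate block and leaving out each library.

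The members and companion lists were chosen with earlier results of these data known. Named were all called members, the 4 next by adjusted p, the 3 highest and 3 lowest by FPKM, the extremes of each subunit, fixed names (RPL5, RPL11, RPLP0, RPLP1, RPLP2, RPS4X, RPS6KB1, MYC, MTOR, LARP1) and up to 4 called genes per companion list, or 2 where none was called. Others were named after their values were seen. Start windows came from RefSeq (47 of 55 members matched by symbol) and coding lengths from GENCODE 29, both on GRCh38. Many members have processed pseudogenes that can share their reads. A gene that the naming rule selects in a companion list is not reported here.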

Additional observations from a re-analysis of the deposited data

How the results depend on the processing

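The 10 calls among members became 4 with no filter, 16 with a mean count of at least 100, 25 with limma-voom after quantile normalization, 17 with DESeq2, 26 with limma on log2(FPKM + 1), and 0 against a minimum fold of 1.5; leaving out a library gave 0 to 13. The 32 genes called higher or lower in the companion lists became 56, 63, 51 and 65 with the mean count filter, limma-voom, DESeq2 and FPKM. Against the minimum fold 1 was called, and leaving out a library gave 10 to 56. In the main fit 8.21% of all tested genes were called higher and 11.5% lower. The share called higher was 12.8%, 11.6%, 8.71% and 14.5% in those settings, in that order, and 1.29% against the minimum fold. The companion counts take in both directions and carry no share of their own, so they cannot be set against these backgrounds. Shares for each companion list in the main fit are given above. The cause of these changes was not tested, except that the minimum fold exceeds every member's. Same-numbered libraries did not deviate together (r = -0.005, -0.072 and -0.058 for numbers 1, 2 and 3), nor did each correlate best with its own number, so the numbers do not pair them. With the replicate block 0 members and 25 companion genes were called. The members' median log2 fold change kept its direction throughout, between 0.16 and 0.26, and their share of counts stayed at 1.16 to 1.21 times the control. All members were at 15 CPM or more in every library, against a floor of at most 0.0443 CPM.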

Other observations

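The table also held 416 rows for pseudogenes of the members (a member's symbol followed by P and a number). Together they took 0.102%, 0.1% and 0.111% of the counts in the controls and 0.13%, 0.13% and 0.121% in the knockout, 1.22 times as much, close to the 1.18 times of the members themselves. RefSeq lists the most pseudogenes for RPL23A (95), RPL7A (80) and RPSA (74). Whether these rows hold reads of the parent messages was not tested.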
